A study of Homo sapiens with 6 samples.

Results

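Nuclear tRNA genes for the basic amino acids lysine, arginine and histidine were examined for RNA bound by HSP70 chaperones in HEK293 Flp-In T-Rex cells. This cell line, derived from human embryonic kidney, carries a site for inserting a transgene and a repressor that tetracycline releases. Members were the RefSeq genes of biotype tRNA outside the mitochondrial chromosome whose symbols begin with TRK- (lysine), TRR- (arginine) or TRH- (histidine). There were 62 of them, 27 for lysine, 26 for arginine and 9 for histidine, among 423 nuclear tRNA genes named by amino acid, anticodon and number. The anticodon is written in each symbol in DNA letters, and genes that share the first number, such as TRK-TTT3-1 and TRK-TTT3-5, are copies named as 1 isodecoder, a set of genes for the same tRNA sequence. The 62 genes fell into 37 isodecoders.

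Bait proteins with a 3xFLAG-HBH tag were expressed under 1 µg/ml tetracycline and mapped by FLASH-seq, in which RNA fixed to the bait by ultraviolet light is purified with it and sequenced. The baits were GFP, the stress-inducible chaperone HSPA1A and the constitutive chaperone HSPA8, with 2 biological replicates each. Peak lists of HSPA1A and HSPA8 were used, 1 per replicate; GFP lists were not analysed here, so no value has a control bait beside it. The baits were tagged proteins made from an induced transgene, and peak lists hold no expression levels by which the labelled cell line could be checked. The lists held 2744 and 2059 peaks for HSPA1A and 3131 and 2040 for HSPA8, and the number of reads behind them is unknown. Each peak carries a whole-number score from the authors whose meaning is not stated, so scores were read only within a list, as a rank percentile among all peaks of that list.

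Transfer RNAs carry amino acids to the ribosome and read codons with their anticodon. Their genes are transcribed by RNA polymerase III from promoter elements inside the gene, the A box and the B box, and the transcript is trimmed, modified and given a CCA tail that is not written in the gene. Lysine tRNA with the TTT anticodon (UUU in RNA) is also known as the primer that human immunodeficiency virus uses for reverse transcription. The adenosine at the first anticodon base of arginine ACG tRNA is edited to inosine by ADAT2 and ADAT3, and histidine tRNA receives an extra guanosine at its 5′ end from THG1L.

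The sequences of TRH-GTG1-3 and TRR-ACG2-1 show where the peaks lay on the RNA. Both genes lie whole inside promoter windows of neighbouring genes in a RefSeq-derived table (GRCh38.p14). TRH-GTG1-3 is at chr1:148281365-148281436 on the plus strand, and TRR-ACG2-1 is at chr3:45688999-45689071 on the minus strand. The sequences are printed 5′ to 3′ along the gene with the bases under the peak in capitals.
TRH-GTG1-3 in HSPA1A replicate 1: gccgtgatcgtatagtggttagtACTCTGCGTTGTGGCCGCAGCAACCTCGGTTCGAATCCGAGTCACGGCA
TRH-GTG1-3 in HSPA8 replicate 1: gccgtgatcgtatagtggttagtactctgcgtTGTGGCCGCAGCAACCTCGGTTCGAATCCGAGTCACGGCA
TRR-ACG2-1 in HSPA1A replicate 2: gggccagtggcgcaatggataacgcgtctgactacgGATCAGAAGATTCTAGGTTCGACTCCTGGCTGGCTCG
TRR-ACG2-1 in HSPA8 replicate 1: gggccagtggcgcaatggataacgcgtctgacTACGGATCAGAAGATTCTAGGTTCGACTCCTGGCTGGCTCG

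In both genes the anticodon occupies bases 34 to 36, counted from the first base of the gene. The histidine peak began at base 24 in HSPA1A replicate 1 and at base 33, directly before the anticodon, in HSPA8 replicate 1. It ended with the gene at base 72 in both lists. The arginine peak began at base 37, directly after the anticodon, in HSPA1A replicate 2 and at base 33 in HSPA8 replicate 1. These peaks ran past the last base, 73, by 1 and 3 bases. All 4 peaks therefore covered the 3′ side of the tRNA, which includes the motif GTTCNA of the B box at bases 52 to 57 of the histidine gene and 53 to 58 of the arginine gene. TRH-GTG1-9 on chromosome 15, the other histidine gene inside such a window, has the same sequence.

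The gene table gives no strand, so the strand of these genes was read from GTTCNA, searched on both strands. The motif occurs in 25.8% of the 35116 windows of 300 bases in the table, on either strand. Of 14 nuclear tRNA genes that lie whole inside a window, all 14 had it on 1 strand alone, and in the 9 of them that carried peaks every peak was on that strand. Only 3 members lay whole inside a window. Across lists, each of the 39 members with a peak had all its peaks on 1 strand. For a member with a single peak this could not be otherwise, and a shared strand need not be the strand of the gene. For members outside the windows, positions along the gene were counted on the strand of the peak.

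How many of the genes carried a peak was counted in each list. A peak touched 32 of 62 members (51.6%) in HSPA1A replicate 1 and 24 (38.7%) in HSPA1A replicate 2. It touched 28 (45.2%) in HSPA8 replicate 1 and 8 (12.9%) in HSPA8 replicate 2. The 95% Wilson intervals were 39.4 to 63.6, 27.6 to 51.2, 33.4 to 57.5 and 6.69 to 23.4%; they cover counting error over genes alone, and gene copies are not independent. HSPA8 replicate 2 stood below the other lists, for the members as for tRNA genes in all, of which 41.1%, 35.9%, 41.4% and 13.2% carried a peak in the same order of lists.

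The baits were then set against each other. The mean was 45.2% ± 9.12 (SD, n = 2) of members for HSPA1A and 29.0% ± 22.8 (SD, n = 2) for HSPA8. The difference of 16.1 percentage points was smaller than the spread between the HSPA8 replicates (exact permutation test over bait labels, two-sided, p = 0.667; the smallest possible p is 0.33). It rested on HSPA8 replicate 2: without that list it was 0. As a share of all nuclear tRNA genes with a peak, members made up 18.4% and 15.8% with HSPA1A and 16.0% and 14.3% with HSPA8. The difference in that share, 1.95 percentage points, had the same p of 0.667 (exact permutation test) and turned to -0.722 when each isodecoder was counted once. It was 7.94 with peaks at or above the median score of their list and 13.0 with at least 50% of the gene covered.

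Members were also compared with the other 361 nuclear tRNA genes of the same list. Those carried a peak at 39.3% and 35.5% with HSPA1A and at 40.7% and 13.3% with HSPA8. The members exceeded them by 12.3, 3.25 and 4.44 percentage points in 3 lists, and the difference was -0.393 in HSPA8 replicate 2. The mean difference was 4.89 ± 5.33 (SD, n = 4 lists; exact sign-flip permutation test, two-sided, p = 0.25, adjusted p = 0.417 over 5 comparisons of gene classes). It was 14.3 with at least 50% of the gene covered (exact sign-flip permutation test, p = 0.25). Without the histidine genes it was 1.76 (exact sign-flip permutation test, p = 0.5), and with each isodecoder counted once it was 8.91 (exact sign-flip permutation test, p = 0.13, the smallest that 4 lists allow).

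**Figure D1:**
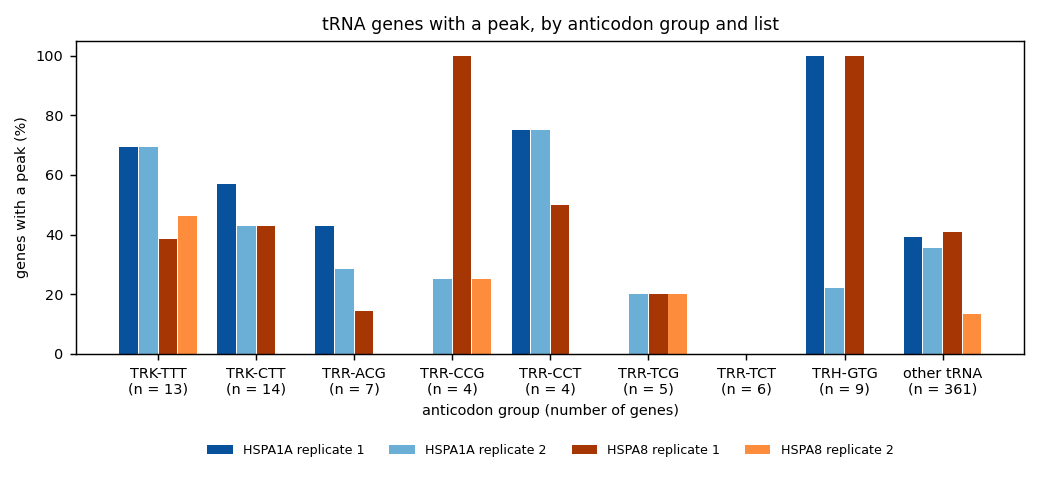
Percentage of the genes of each anticodon group that carried a peak (y axis) in each of the 4 lists (bar colours), with the number of genes under each group; the last group holds the other 361 nuclear tRNA genes. All 9 histidine genes had a peak in both lists numbered 1, and no arginine TCT gene had one in any list. Among the plotted groups lysine TTT was highest in HSPA8 replicate 2, at 46.2% of genes and 2 of 9 isodecoders.

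At least 1 list had a peak at 39 members (62.9%), against 56.3% of all nuclear tRNA genes. All 4 lists had one at 3 members, while 7.8% of all nuclear tRNA genes met this. Those 3 genes were TRK-TTT3-2, TRK-TTT3-5 and TRK-TTT6-1, all for lysine TTT. A further 17 members had a peak in 3 lists, which brings the count in 3 or 4 lists to 20, made up of 14 lysine, 4 arginine and 2 histidine genes. This is 20 of 62 members, beside 26% of all nuclear tRNA genes (110 of 423). Both HSPA1A lists and neither HSPA8 list had a peak at 2 members, TRK-TTT1-1 and TRR-CCT1-1; 5.44% of all nuclear tRNA genes showed this pattern. The reverse pattern, both HSPA8 lists alone, was found at 0 members and at 0% of all nuclear tRNA genes. Between replicates, 20 members were shared by the HSPA1A lists (62.5% of those in replicate 1 and 83.3% of those in replicate 2), and 5 by the HSPA8 lists (17.9% and 62.5%). The other nuclear tRNA genes shared 66.9% and 74.2% between the HSPA1A lists and 31.3% and 95.8% between the HSPA8 lists. All 8 members of HSPA8 replicate 2 were also in HSPA1A replicate 2, as were all 48 other nuclear tRNA genes of that list.

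Lysine genes carried a peak more often than arginine genes in each list. They were at 63.0% and 55.6% with HSPA1A and at 40.7% and 22.2% with HSPA8, while arginine genes were at 23.1%, 26.9%, 30.8% and 7.69% in the same order. The mean difference was 23.3 ± 13.6 percentage points (SD, n = 4 lists; exact sign-flip permutation test, p = 0.13, the smallest possible, adjusted p = 0.312 over 5 comparisons). It fell to 8.33 when each isodecoder was counted once (exact sign-flip permutation test, p = 0.5). The comparison of lysine with arginine was not among the planned tests. By list, 9, 7, 6 and 2 of 18 lysine isodecoders had a peak, and 4, 6, 6 and 2 of 18 arginine isodecoders. Counted so, lysine and arginine were equal in both HSPA8 lists. The lysine values of HSPA1A and HSPA8 did not overlap, with means of 59.3% ± 5.24 and 31.5% ± 13.1 (SD, n = 2 each; exact permutation test, p = 0.33, the smallest possible, adjusted p = 1 over 6 bait comparisons). Nor did the baits overlap at glutamate genes (TRE), outside the members, at 93.3% and 100% with HSPA1A and 66.7% and 0% with HSPA8. Glutamine genes (TRQ) likewise stood at 89.5% and 84.2% against 78.9% and 0%. All nuclear tRNA genes did overlap, at 41.1% and 35.9% with HSPA1A and 41.4% and 13.2% with HSPA8. Arginine and histidine genes differed between baits by 5.77 and 11.1 percentage points, within the range set by the replicates (exact permutation test, p = 1 for each).

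Lysine TTT was the only member group with more than 1 gene in HSPA8 replicate 2. Of 13 genes, HSPA1A had a peak at 9 in each replicate, and HSPA8 at 5 in replicate 1 and 6 in replicate 2. The last 6 stood for 2 of 9 isodecoders. Outside the members, 100% of aspartate genes (TRD) and 90% of proline genes (TRP) had a peak in HSPA8 replicate 2. TRK-TTT6-1, at chr6:27334990-27335062, had scores of 37 and 17 with HSPA1A and 22 and 9 with HSPA8. These stood at percentiles 72.6, 57.0, 64.0 and 24.0 of their lists, so the gene lay above the middle of 3 lists and in the lower part of HSPA8 replicate 2.

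TRK-TTT3-5, at chr17:8119155-8119227, had scores of 28 and 16 with HSPA1A and 35 and 10 with HSPA8. Its percentiles were 69.5, 55.4, 68.5 and 27.3. The remaining copies of this isodecoder had lower scores: TRK-TTT3-2 had 17, 9, 15 and 6, and TRK-TTT3-1, TRK-TTT3-3 and TRK-TTT3-4 each had 11 and 8 with HSPA1A, no peak in HSPA8 replicate 1 and 6 in HSPA8 replicate 2. The last 3 genes lie on chromosomes 1, 6 and 11 and had equal scores in every list. How the authors treated reads that match several copies is not given in the sources used here, so peaks on copies are uncertain between them. Over all members, 8 isodecoders have several genes, and of the 17 pairs of such an isodecoder and a list with a peak, 13 had peaks on several copies and 10 on every copy.

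TRK-TTT2-1 on chromosome 11 and TRK-TTT4-1 on chromosome 6 also had equal scores, 12 and 13 with HSPA1A and 7 in HSPA8 replicate 1. TRK-TTT1-1, inside the protein-coding gene ZFHX3 on chromosome 16, had 12 in each HSPA1A list and no peak with HSPA8. The 4 lysine TTT genes without a peak in any list were TRK-TTT5-1, TRK-TTT7-1, TRK-TTT8-1 and TRK-TTT9-1, each the only gene of its isodecoder; they are named here after their values were seen.

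Lysine CTT genes were found in 3 lists and not in HSPA8 replicate 2. Of 14 genes, 8, 6, 6 and 0 had a peak. The 5 copies of TRK-CTT2 had scores of 15 to 18 in HSPA1A replicate 1, 7 to 11 in HSPA1A replicate 2 and 6 to 22 in HSPA8 replicate 1. The highest was TRK-CTT2-2, at chr5:181207755-181207827, with 18, 11 and 22. TRK-CTT2-1 and TRK-CTT2-4, on chromosomes 1 and 6, had equal scores of 18, 9 and 13. TRK-CTT2-3 had 15, 7 and 7, and TRK-CTT2-5 had 16, 8 and 6. TRK-CTT4-1, inside OR1F1 on chromosome 16, had 13, 5 and 11. TRK-CTT1-1 and TRK-CTT3-1 were seen in HSPA1A replicate 1 alone, with scores of 5 and 10. TRK-CTT1-2, the other copy of TRK-CTT1, had no peak, and neither had TRK-CTT5-1, TRK-CTT6-1, TRK-CTT7-1, TRK-CTT8-1 and TRK-CTT9-1. TRK-CTT5-1 lies 4790 bases from TRK-CTT2-5 on chromosome 16, so genes with and without a peak lay close together.

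**Figure D2:**
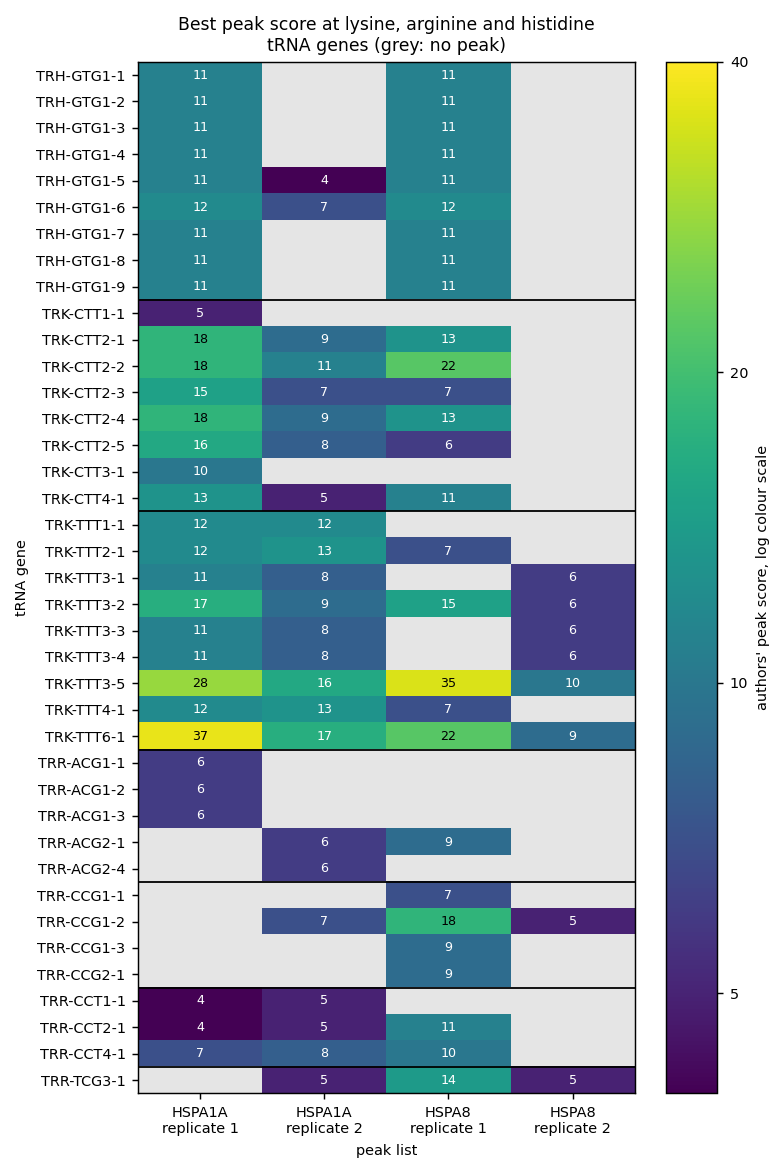
Authors' score of the best peak (number in each cell, log colour scale) at each of the 39 member genes with a peak (rows, grouped by anticodon) in the 4 lists (columns); grey means no peak. TRK-TTT3-5 and TRK-TTT6-1 hold the highest scores, and the 9 histidine genes share scores of 11 and 12 in the lists numbered 1.

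The 9 histidine genes are copies of 1 isodecoder, TRH-GTG1, on chromosomes 1, 6, 9 and 15. All 9 had a peak in HSPA1A replicate 1 and all 9 in HSPA8 replicate 1, at a score of 11 in 8 genes and of 12 in TRH-GTG1-6, in both lists. In HSPA1A replicate 2 only TRH-GTG1-5 and TRH-GTG1-6 had a peak, with scores of 4 and 7, and HSPA8 replicate 2 had 0. Of the 9 genes, 7 had a peak in both lists numbered 1 and in neither list numbered 2. This pattern was seen at 7.33% of all nuclear tRNA genes (31 of 423), among them 8 of 11 with the prefix TRM (methionine) and 8 of 29 with TRC (cysteine), so it was not confined to histidine genes. The 9 histidine genes stand for 1 tRNA sequence, and their counts are not independent of each other. The mean was 61.1% ± 55.0 of histidine genes for HSPA1A and 50% ± 70.7 for HSPA8 (SD, n = 2 each). TRH-GTG1-6 lies inside NFIB, and TRH-GTG1-7 and TRH-GTG1-8 lie inside SHF.

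Arginine genes had median score percentiles of 30.0 and 18.1 in the HSPA1A lists, 48.0 in HSPA8 replicate 1 and 4.0 in HSPA8 replicate 2, where other tRNA genes stood at 46.5, 41.2, 46.5 and 19.5. Their highest score was 7 and 8 in the HSPA1A lists, 18 in HSPA8 replicate 1 and 5 in HSPA8 replicate 2. Genes of the ACG, CCG, CCT and TCG groups all appeared in HSPA1A replicate 2 and HSPA8 replicate 1; ACG and CCT genes also appeared in HSPA1A replicate 1, and CCG and TCG genes in HSPA8 replicate 2. The 4 CCG genes had a peak at 0 and 1 genes with HSPA1A and at 4 and 1 with HSPA8. TRR-CCG1-2, at chr6:28881388-28881460, had no peak in HSPA1A replicate 1 and scores of 7, 18 and 5 in the other lists. TRR-TCG3-1, at chr17:75035113-75035185, was likewise missing from HSPA1A replicate 1 and had 5, 14 and 5. It was the only one of 5 TCG genes with a peak; TRR-TCG1-1, TRR-TCG2-1, TRR-TCG4-1 and TRR-TCG5-1 had none. The other CCG genes, TRR-CCG1-1, TRR-CCG1-3 and TRR-CCG2-1, were seen in HSPA8 replicate 1 alone, with scores of 7, 9 and 9.

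The CCT genes had a peak more often with HSPA1A, a difference that was not tested. Of 4, 3 had a peak in each HSPA1A list, 2 in HSPA8 replicate 1 and 0 in HSPA8 replicate 2. Of all nuclear tRNA genes, 41.1% and 35.9% had one with HSPA1A and 41.4% and 13.2% with HSPA8, so HSPA8 replicate 2 was low throughout. TRR-CCT4-1, at chr7:139340700-139340772 within LUC7L2 and FMC1, had scores of 7 and 8 with HSPA1A and 10 in HSPA8 replicate 1. TRR-CCT2-1 had 4, 5 and 11, and TRR-CCT1-1 had 4 and 5 with HSPA1A alone, at percentiles of 0.893 and 6.85, near the foot of both lists. TRR-CCT3-1 on chromosome 16 had no peak. TRR-CCT1-1, TRR-CCT2-1 and TRR-TCG3-1 lie in a row inside KCTD2 on chromosome 17, with 452 and 609 bases between them.

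Of the 7 ACG genes, 3, 2, 1 and 0 had a peak in the order HSPA1A replicates 1 and 2, HSPA8 replicates 1 and 2. The 3 copies of TRR-ACG1 each scored 6 in HSPA1A replicate 1 alone. TRR-ACG2-1, whose sequence is printed above, had 6 in HSPA1A replicate 2 and 9 in HSPA8 replicate 1. TRR-ACG2-4, another copy of that isodecoder, scored 6 in HSPA1A replicate 2 alone, with the same footprint of bases 37 to 74 as TRR-ACG2-1 in that list, while TRR-ACG2-2 and TRR-ACG2-3 had no peak. The 6 TCT genes had no peak in any list. Of these, 5 are between 85 and 91 bases long, while TRR-TCT4-1 is 74. Arginine TCT is among the few human tRNA families whose genes carry an intron. No member longer than 80 bases had a peak. Tyrosine genes (TRY), outside the members, had a peak at 9 of 13, with ends at bases 89 to 97. Any link of length or intron to the lack of peaks was not tested. TRR-TCT2-1 lies 1697 bases from TRK-TTT3-5 on chromosome 17, so a gene with no peak and a gene with a peak in all 4 lists were neighbours.

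Peaks on the members lay on the 3′ side of the tRNA. Over the 4 lists there were 92 pairs of a gene and a peak, and in 90 of them the midpoint of the peak was past the middle of the gene. By list, the share was 100%, 95.8%, 96.4% and 100%, in the order HSPA1A replicates 1 and 2, HSPA8 replicates 1 and 2. The 2 exceptions covered the gene from before its first base: TRH-GTG1-6 in HSPA1A replicate 2, from 2 bases before the gene to base 71, and TRK-TTT3-2 in HSPA8 replicate 1, from 6 bases before the gene to 2 bases after it. Counting equal peaks on copies of an isodecoder once per list left 60 distinct footprints, of which 58 lay on the 3′ side.

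Other nuclear tRNA genes had a lower share of peaks on that side. It was 80.4%, 67.4%, 89.9% and 60.4% in the same order of lists. The members were higher in 4 of 4 lists, by a mean of 23.5 ± 14 percentage points (SD, n = 4 lists; exact sign-flip permutation test, p = 0.13, the smallest possible, adjusted p = 0.312 over 5 comparisons). The difference lay mainly with 2 amino acids: proline genes had 9.62% of 52 pairs on the 3′ side and glutamate genes 39.6% of 48. Without these it was 5.43 percentage points (exact sign-flip permutation test, p = 0.25). A peak on the 3′ side was thus common among other tRNA classes too. This comparison was not among the planned tests, and gene copies were not collapsed in it. The 20 proline genes fell into 7 isodecoders and the 15 glutamate genes into 6.

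**Figure D3:**
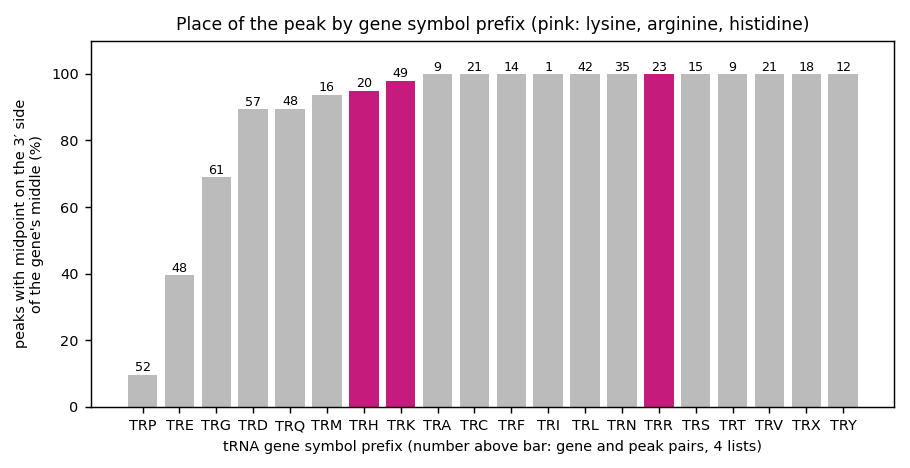
Percentage of gene and peak pairs whose peak midpoint lay past the middle of the gene, read on the strand of the peak (y axis), by gene symbol prefix (x axis), over the 4 lists together; the number above each bar is the number of pairs, and prefixes with no peak are left out. Lysine, arginine and histidine genes (pink) were at 98.0%, 100% and 95.0%, and proline (TRP) and glutamate (TRE) genes were lowest.

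The 5′ edge of the peaks often lay at the anticodon, most regularly at lysine TTT genes. Of the 92 pairs, 59 (64.1%) began at bases 33 to 37, a window set after the values were seen, and no member peak began later. Lysine TTT had 28 of 29 pairs in this window, lysine CTT 9 of 20, arginine 12 of 23 and histidine 10 of 20. In the same window began 65 of 479 pairs (13.6%) of the other tRNA genes, and 131 of 479 (27.3%) began at base 33 or later, with no upper bound. Starts near the anticodon were not particular to the members: 8 of 9 pairs of alanine genes (TRA) and 5 of 9 of threonine genes (TRT) began in the window, and all 14 of phenylalanine genes (TRF) at bases 37 to 38. Among the 60 distinct footprints of the members 41 (68.3%) began there. Copies of the other tRNA genes were not collapsed in this way, so that share has no counterpart among them. By list the members' share was 43.8%, 66.7%, 75.0% and 100%, against 15.5%, 8.89%, 18.9% and 4.17% for the other tRNA genes. The upper bound of the window was fitted to the members' own starts. Without that bound the other tRNA genes stood at 30.4%, 28.9%, 30.4% and 4.17%, and the members' shares were unchanged.

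Anticodon groups differed in where the peak began. Lysine TTT peaks began at bases 35 to 37 in 28 of 29 pairs, in all 4 lists, with a median width of 39 bases. The exception was the peak that covers all of TRK-TTT3-2. Lysine CTT peaks were longer, with a median width of 54.5 bases and starts from base 12 to base 35. Histidine peaks began at bases 23 to 24 in HSPA1A replicate 1 and at base 33 in HSPA8 replicate 1, in all 9 copies. In HSPA1A replicate 2 the peak began at base 34 on TRH-GTG1-5 and 2 bases before the gene on TRH-GTG1-6. The starts thus differed between the HSPA1A lists too. Arginine CCT peaks began at bases 31 to 34, and arginine CCG and TCG peaks at 27 to 37.

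The 3′ edge lay close to the end of the gene. It ended between base 65 and base 76 in all 92 pairs, and in 46 of them it passed the annotated end, by 3 bases at most. Among the other tRNA genes 208 of 479 pairs passed the end. They did so by at most 13 and 5 bases in the HSPA1A lists and by at most 57 and 3 in the HSPA8 lists. None of the 20 histidine pairs passed the end, whereas 16 of 29 lysine TTT pairs and 21 of 23 arginine pairs did. The sequence of the bases past the end was not examined. Within 200 bases of a member there was no further peak off the tRNA gene in any of the 4 lists.

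**Figure D4:**
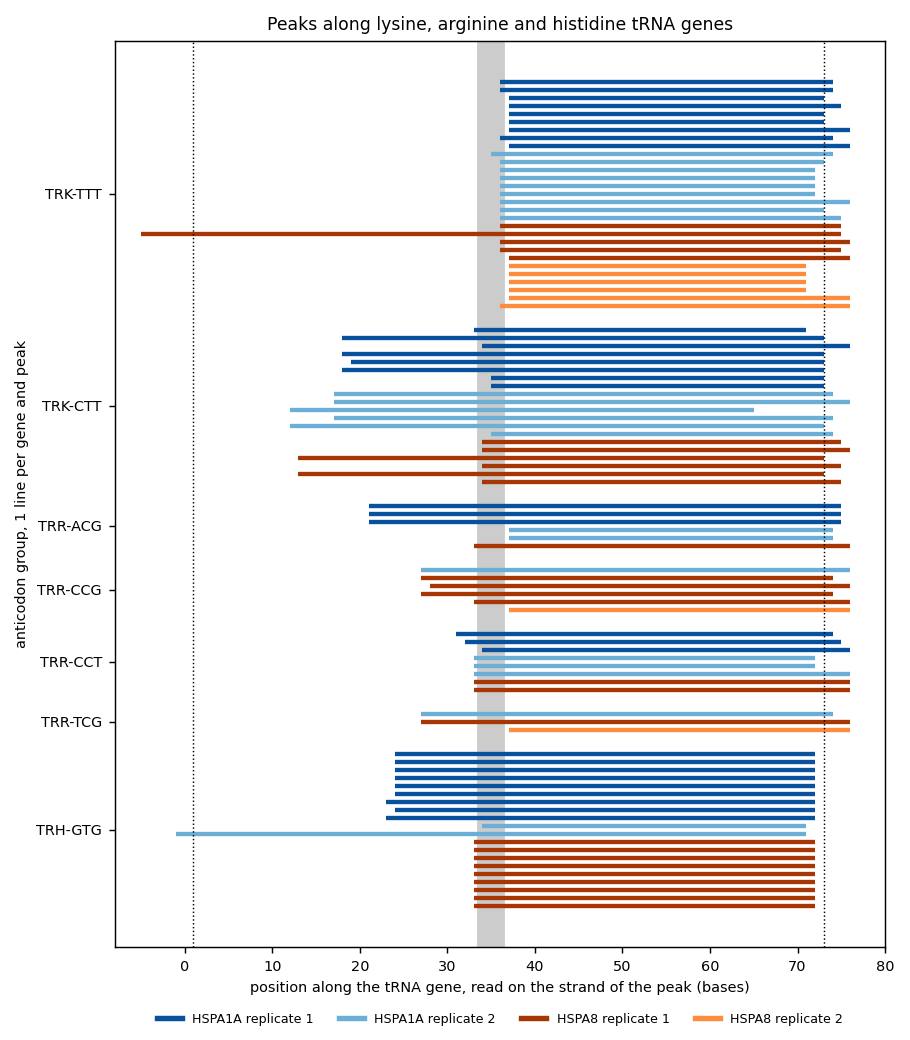
Each line is a peak on a member gene, drawn from its first to its last base along the gene as read on the strand of the peak (x axis, bases), grouped by anticodon (y axis) and coloured by list; dotted lines mark bases 1 and 73 and the grey band the anticodon, bases 34 to 36. Of the 92 pairs, 59 begin at bases 33 to 37, 28 of them at lysine TTT genes, and 2 begin before the first base of the gene.

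In score rank the members stood near the middle of their lists or below. The median percentile of the best peak was 53.5 and 32.3 for HSPA1A and 52.2 and 8.85 for HSPA8. The other tRNA genes stood at 46.5 and 41.2 with HSPA1A and at 46.5 and 19.5 with HSPA8, so the order of members and other genes was not the same in each list. The highest member score was 37, 17, 35 and 10, while the other tRNA genes reached 354, 361, 96 and 60.

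The members are spread over 12 chromosomes, with 18 on chromosome 6, 11 on chromosome 1 and 8 on chromosome 16. The 18 on chromosome 6 lie between 26299677 and 28951101, and 10 of them had a peak in some list. Of the 62 members, 23 overlapped another RefSeq gene, 13 of them a protein-coding gene; the table gives gene bounds without exons. Of the 39 members with a peak, 14 overlapped another RefSeq gene, protein-coding or not. Of 13 pseudogene entries with lysine, arginine or histidine symbols, only TRK-TTT14-1 had a peak, with scores of 7 and 5 in the lists numbered 2 of HSPA1A and HSPA8.

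Genes that act on nuclear or mitochondrial tRNAs were examined through a list of 45 protein-coding genes. It held 5 aminoacyl-tRNA synthetases for lysine, arginine and histidine (KARS1, RARS1, RARS2, HARS1 and HARS2). The rest were 18 processing or modification factors and 22 genes of the RNA polymerase III machinery. A peak in at least 1 list was found at 1 of 45 (2.22%), against 7.69% of 20056 protein-coding genes. That gene was TRNT1, which adds the CCA tail to tRNAs, with 1 peak of score 5 in HSPA8 replicate 1. None of the 5 synthetase genes and none of the 22 polymerase III genes had a peak in the 4 lists. The mitochondrial tRNA gene for lysine, TRNK, had a peak with scores of 12 and 33 in the lists numbered 1 of HSPA1A and HSPA8, and none in the lists numbered 2. TRNR, for arginine, had a peak with a score of 7 in HSPA8 replicate 1 alone. TRNH, for histidine, was touched by 2 peaks in each list numbered 1, with best scores of 8 and 30; the overlap of the latter was 2 bases.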

How the data were processed

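Per the labels' protocols, random tags in the adapters served to merge PCR duplicates. Trim Galore 0.4.4, FastQC, STAR 2.6.0b, deepTools and the build GRCh38 are named, with no role or order, in the submitters' processing notes. The peak caller and its threshold are not given in the sources used here. The peak lists used, 1 per replicate of HSPA1A and HSPA8, hold values as the authors deposited them: positions, strand and a score per peak of unstated meaning; chromosome names were brought to 1 style. RefSeq genes (GRCh38.p14) were matched to peaks by at least 1 bp of overlap, ignoring strand, since the gene table holds none. Of 443 nuclear tRNA entries, 20 without a name of amino acid, anticodon and number were left out, 0 of them with a peak.

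Values per list were compared by exact permutation of bait labels or of signs over lists, with Benjamini-Hochberg adjustment; p-values measure only the spread between these lists. Named genes were those with a peak in 3 or 4 lists, the 5 best-ranked per amino acid (ties by name) and those of 1 bait alone in both replicates; others are named where a count or group called for it. Members, lists and tests were chosen with earlier results of these data known. Alternatives concerned the score, list length, overlap, isodecoders, left-out replicates and the replicate block; matching by gene strand was not run. Procedures were tested on simulated peaks. Permutation tests were computed with numpy 2.4.6, with scipy 1.17.1 loaded beside it. Tables used pandas 2.3.3 and figures matplotlib 3.10.9, under Python 3.11.15.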

Additional observations from a re-analysis of the deposited data

How the results depend on the processing

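Of 53 values under other settings, 51 kept their direction or stayed within the spread between lists; this number of lists lets no p-value pass a usual threshold, so an unchanged call says nothing about stability. The members' share of tRNA genes with a peak, HSPA1A minus HSPA8, reversed from 1.95 to -0.722 percentage points with each isodecoder counted once; the cause was not tested. With a replicate left out it ranged from 0.647 to 3.25, the difference in members with a peak from 0 (without HSPA8 replicate 2) to 32.3, members minus other tRNA genes from 2.43 to 6.66, lysine minus arginine from 17.7 to 27.7, the 3′ share from 97.4 to 98.8% and its difference from other tRNA genes from 18.2 to 29.2. With peaks at or above the median score of their list, members with a peak fell from 32, 24, 28 and 8 to 25, 4, 20 and 0, fewer by construction, and 23 of 26 named genes were in fewer lists. With at least 50% of the gene covered, HSPA8 replicate 2 kept 4. The share difference moved to 7.94 with the score limit and to 13.0 with the coverage limit, and members minus other tRNA genes to 6.32 and 14.3; the cause was not tested. The restriction to genes without histidine, without proline and glutamate, and to all 443 entries was chosen after seeing the data. So was every alternative for the lysine-arginine and 3′ comparisons. Neither comparison was itself among the planned tests, and peak position was planned as description alone. The labels tie no day or batch to a replicate number, so the lists share only a number; deviations of same-numbered lists correlated at 0.200 over the 62 members. With the replicate block the differences between baits stayed at 16.1 and 1.95 percentage points (exact sign-flip permutation test, p = 0.5 for each, the smallest possible). Read depth is unknown and limits every count.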
